A study of Mus musculus with 3 samples.

Results

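Otx2, Pou3f1, Fgf5, Sox3, Zic2 and Foxd3 are 6 genes of the formative and primed states of pluripotency, taken by symbol from the 52636 genes counted in single mouse embryonic stem (ES) cells. Each of the 6 symbols matched 1 gene in the tables of all 3 replicates. The cells were JM8.N4, an ES cell line of the C57BL/6N strain, edited to fuse an auxin-inducible degron to RAD21, part of the ring complex cohesin. This tag marks the protein for destruction once auxin is present, and untreated and treated cells both carry it. All cells came from this 1 edited line, grown on gelatin without feeder cells in fetal bovine serum with leukemia inhibitory factor (LIF) and the 2i inhibitors. PD0325901 blocks MEK, the kinase above ERK, and CHIR99021 blocks GSK3, which raises Wnt signaling. Control cells were left untreated, and auxin-treated cells received 500 μM indole-3-acetic acid for 6 h.

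Pluripotent cells pass through a naive state, held in culture by LIF and 2i, a formative state and a primed state before they choose a germ layer. The naive state is marked by Nanog, Klf4, Tfcp2l1 and Esrrb, and blocking MEK holds cells in it. When ERK signaling is released, naive factors fall, and Otx2, a homeobox factor, and Pou3f1 (also called Oct6), a POU factor, are among the first to come up. They redirect shared factors such as POU5F1 to new enhancers. Fgf5, a secreted growth factor, follows and is a classic marker of the early epiblast after implantation. Sox3 (an SRY-box factor), Zic2 (a zinc finger factor) and Foxd3 (a forkhead factor) act in the primed epiblast and early neural cells.

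Smart-SCRB labels each captured transcript molecule in a well with a unique molecular identifier (UMI), and levels are given as CPM, the UMIs of a gene per 1000000 UMIs over the cells of a plate or condition. Of 1536 wells, the 1335 in which over 2600 genes were detected were kept. In replicate 3, 2 of 4 plates were placed in opposite conditions by the deposited annotation and by the source values of the study's plot of detected genes. Their 168 cells were left out, so that 14 of 16 plates and 1167 cells remained, with 1 control and 1 auxin plate in replicate 3. There were 168, 371 and 85 control cells and 169, 290 and 84 treated cells in replicates 1, 2 and 3. Median UMIs per cell ran from 72317 in replicate 3 control to 187088 in replicate 2 auxin, and no well name was shared between the tables. The degron acts on protein, and Rad21 RNA, at 20.9, 31.2 and 42.4 CPM in control and 19.3, 34.0 and 45.2 CPM in treated cells of the 3 replicates, does not check the treatment.

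The 3 tables did not treat overlapping genes alike. Of 1190 genes above 20 CPM in replicate 1 that overlap another gene on the same strand, 122 (10.3%) were under 0.1 CPM in both replicates 2 and 3, against 0 of 2802 genes that overlap none. Between replicates 2 and 3 no gene of that kind was lost in this way, in either direction. Sox2, which lies inside a longer noncoding gene, was at 155 CPM in replicate 1 control and listed at 0 in replicates 2 and 3. Of 1850 genes that overlap another counted gene on the other strand alone, as Otx2 and Pou3f1 do, 1 was lost in this way. Pou5f1 is of that kind too in the annotation used here. It was at 273 CPM in replicate 1 control and at 8.40 and 12.5 CPM in replicates 2 and 3. A count of genes under 0.1 CPM cannot see a drop of that size in any gene, and its cause was not tested. None of the 6 genes shares its strand with another counted gene, apart from Foxd3, whose body holds the micro RNA gene Gm23366, at 0 in every replicate. Gm49154, which is annotated on the strand of Otx2 and overlaps it over 1726 bases, was not analysed here. Replicate 2 is therefore set both against replicates 1 and 3 and against replicate 3 alone, whose table did not differ from that of replicate 2 in this respect, while auxin and control cells are always compared within 1 table. Of the defining ES cell genes, Nanog was at 496, 58.6 and 525 CPM in control cells of replicates 1, 2 and 3, and Sall4 at 103, 134 and 145 CPM. Tdgf1, from the list of other formative and primed genes, was at 642, 620 and 638 CPM.

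In GRCm38 (mm10) coordinates, Otx2 (ENSMUSG00000021848) lies on the minus strand at chr14:48657677-48673819 with 11 annotated transcripts, and Zic2 (ENSMUSG00000061524) on the plus strand of the same chromosome at chr14:122475435-122479852. Pou3f1 (ENSMUSG00000090125, chr4:124656807-124660655) and Foxd3 (ENSMUSG00000067261, chr4:99656299-99658622) are genes of 1 exon on the plus strand of chromosome 4. Sox3 (ENSMUSG00000045179, chrX:60891366-60893430, minus strand) also has 1 exon, and Fgf5 (ENSMUSG00000029337) spans chr5:98254184-98277030 on the plus strand. The UMI counts are per gene and do not separate exons, introns or untranslated regions.

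The RefSeq table of promoters (GRCm38.p6) held 3 of the 6 genes, Otx2, Fgf5 and Foxd3. The 250 bases before their annotated starts are shown because Otx2 and Fgf5, both far higher in replicate 2 than in replicate 3, differ in base composition in the windows shown, with each CpG dinucleotide, the site that DNA methylation acts on, in capitals. The first of 4 Otx2 windows lies at chr14:48667645-48667894 on the minus strand, the Fgf5 window at chr5:98253934-98254183 on the plus strand and the Foxd3 window at chr4:99656049-99656298 on the plus strand.
Otx2: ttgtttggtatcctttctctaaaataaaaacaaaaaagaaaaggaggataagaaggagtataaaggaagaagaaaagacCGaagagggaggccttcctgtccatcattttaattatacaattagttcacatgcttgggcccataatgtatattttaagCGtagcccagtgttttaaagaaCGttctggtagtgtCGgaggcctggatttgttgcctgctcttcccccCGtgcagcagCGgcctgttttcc
Fgf5: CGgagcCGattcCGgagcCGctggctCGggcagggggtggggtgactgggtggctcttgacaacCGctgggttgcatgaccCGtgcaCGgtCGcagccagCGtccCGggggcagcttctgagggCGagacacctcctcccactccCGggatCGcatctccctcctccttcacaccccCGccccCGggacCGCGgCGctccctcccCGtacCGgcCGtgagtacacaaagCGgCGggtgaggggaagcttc
Foxd3: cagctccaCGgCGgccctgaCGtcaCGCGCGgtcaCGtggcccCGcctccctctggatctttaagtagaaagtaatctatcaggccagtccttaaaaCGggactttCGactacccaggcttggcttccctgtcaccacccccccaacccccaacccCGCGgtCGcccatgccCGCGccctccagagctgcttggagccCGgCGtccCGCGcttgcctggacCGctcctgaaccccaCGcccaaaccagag
The Otx2 window was 42% G and C with 6 CpG, Fgf5 70.8% with 24 and Foxd3 65.6% with 21, against medians of 52.4% and 6 over 32851 windows of 27025 genes. The Otx2 window shown was thus poorer in G and C than most (15.9% of windows had less), and those of Fgf5 and Foxd3 were richer (91.7% and 83.8% had less). The other Otx2 windows were nearer the median, at 49.2%, 48.4% and 53.6% G and C with 8, 14 and 9 CpG. The motifs searched on both strands of the 6 windows of these genes were TAATCC (bound by OTX factors), ATGCAAAT (the octamer of POU factors) and ACAATG (bound by SOX factors), none of which holds another. The single match was TAATCC on the minus strand of the third Otx2 window, 211 bases before its start. Over all windows, 6.25%, 1.60% and 10.7% held these letters.

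The main contrast among these genes was between replicates, in control cells as in treated ones. Otx2, Pou3f1 and Fgf5 were high in replicate 2 and low or absent in replicates 1 and 3, Sox3 was low in all and somewhat higher in replicate 2, and Zic2 and Foxd3 stayed under 6 CPM on every plate. The design does not set replicates against one another, so this contrast was not tested and the values are a description. Fewer cells that express a gene and less RNA per cell cannot be told apart in a level, so shares of cells follow below.

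Otx2 stood at 184, 185, 182 and 191 CPM on the 4 control plates of replicate 2. The control plates of replicate 1 gave 11.7 and 15.5 CPM and that of replicate 3 gave 4.29 CPM. All plates of replicate 2 lay far above the others, with no overlap, and those of replicate 1 lay above that of replicate 3. Over all cells, Otx2 was 43.3-fold higher in replicate 2 than in replicate 3 control (95% interval 29.5 to 66.3, which like the others given for ratios covers counting error only), and 20.6-fold above the mean of replicates 1 and 3.

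Pou3f1 reached 77.8, 79.4, 101 and 87.3 CPM on the control plates of replicate 2. It stood at 0.357 and 1.45 CPM on those of replicate 1 and at 4.78 CPM on that of replicate 3. The order of replicates 1 and 3 was thus the opposite of that for Otx2, and replicate 2 was again the highest on every plate. The ratio of replicate 2 to replicate 3 was 18.1 (12.6 to 27.0), and to the mean of replicates 1 and 3 it was 30.2.

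Fgf5, the secreted marker of the set, was at 8.20, 23.3, 19.3 and 15.7 CPM on the same 4 plates. In replicate 1 no UMI of Fgf5 was counted in any of the 168 control or 169 auxin-treated cells, and replicate 3 gave 1 UMI in each condition. Relative to their mean, the 4 control plates of replicate 2 differed more for Fgf5 (SD 38.6% of the mean) than for Otx2 (2.01%) or Pou3f1 (12.2%), yet none came near the other replicates. With 816 UMIs against 1, the ratio of replicate 2 to replicate 3 was 101, with a wide interval (18.1 to 3990).

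Sox3 was at 0.902, 2.84, 1.88 and 1.06 CPM on the control plates of replicate 2, at 0.834 and 0 CPM on those of replicate 1 and at 0.165 CPM (1 UMI) on that of replicate 3. The plates of replicate 2 lay above the rest, but by a narrow margin over 1 plate of replicate 1. Its ratio of replicate 2 to replicate 3 was 10.1 (1.77 to 405).

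Zic2 and Foxd3 did not share this pattern. Zic2 lay between 1.54 and 2.69 CPM on the control plates of replicate 2, at 0.953 and 1.56 CPM in replicate 1 and at 3.79 CPM in replicate 3, so that replicate 3 was the highest. Its ratio of replicate 2 to replicate 3 was 0.602 (0.382 to 0.989). Foxd3 lay between 1.22 and 2.77 CPM in replicate 2, at 0.415 and 1.55 CPM in replicate 1 and at 0.660 CPM in replicate 3, which overlapped between replicates 2 and 1. Its ratio of replicate 2 to replicate 3 was 2.91 (1.10 to 10.9).

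**Figure D1:**
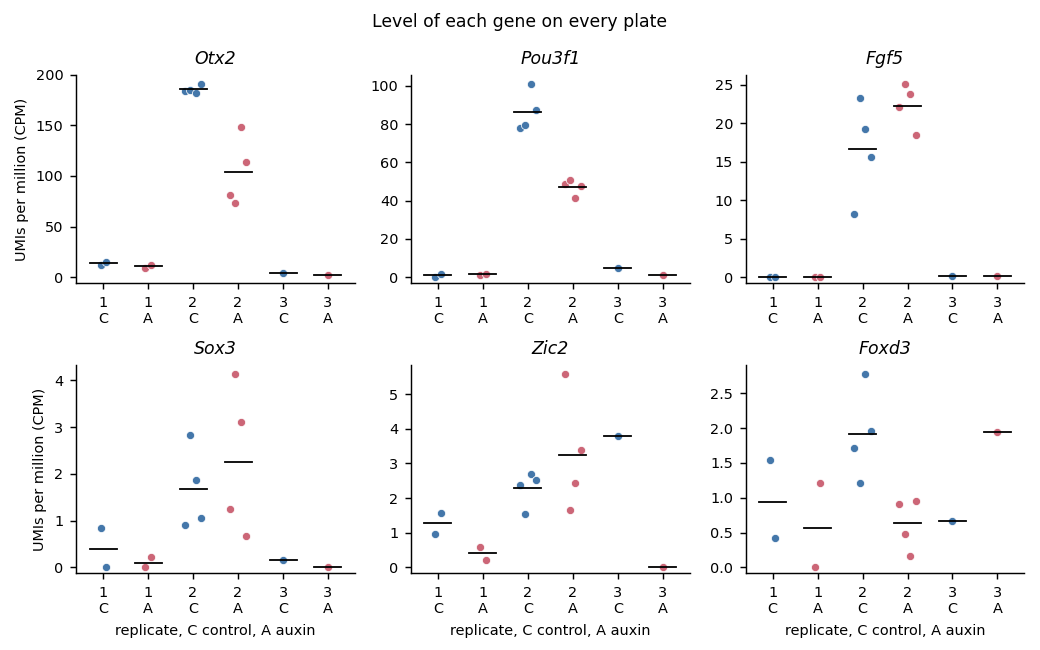
Level of each of the 6 genes in CPM (UMIs per 1000000 UMIs, vertical axis, a separate linear scale per gene) on every plate of settled condition, by replicate and condition (C control in blue, A auxin in red). Points are plates and lines are the level over all cells of the group. For Otx2 the 4 control plates of replicate 2 lie between 182 and 191 CPM and those of replicates 1 and 3 at or under 15.5 CPM.

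In auxin-treated cells, replicate 2 was again above the others for Otx2 (80.8, 73.4, 148 and 114 CPM against 9.53 and 12.5 in replicate 1 and 1.94 in replicate 3) and for Pou3f1 (48.7, 50.7, 41.6 and 47.8 CPM against 1.28, 1.77 and 1.35). Fgf5 lay between 18.5 and 25.1 CPM in replicate 2, against 0 and 0.150 CPM. Zic2 was at 3.25 CPM in replicate 2 and 0.416 CPM in replicate 1, and replicate 3 held no UMI, so that replicate 2 was at least 7.25-fold higher than replicate 3, counting the zero as 3 UMIs. That bound rests on 1 plate, since with the disputed plate that the source values place in auxin replicate 3 held 37 UMIs of Zic2 (2.60 CPM, a ratio of 1.25). Sox3 was at 2.26 CPM against 0.104 CPM and no UMI (at least 5.04-fold higher than replicate 3), and Foxd3 was the exception, with 0.634 CPM in replicate 2, 0.572 CPM in replicate 1 and 1.94 CPM in replicate 3.

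Counted over the 6 genes, 4 (Otx2, Pou3f1, Fgf5, Sox3) had every control plate of replicate 2 above every control plate of replicates 1 and 3, and 0 had every plate below, where 19.2% and 11.3% of 17514 tested genes did. Otx2, Pou3f1 and Fgf5 were over 4-fold and over 10-fold above the mean of replicates 1 and 3 on that scale, as were 2.22% and 0.377% of tested genes. Against replicate 3 alone, 5 of 6 had all plates higher and 1 (Zic2) all lower, where 28.3% and 36.2% of tested genes did, and the same 3 were over 4-fold and over 10-fold higher, as were 2.16% and 0.337%. Replicate 3 has 1 settled control plate. With its disputed plates placed by the source values, Foxd3 (2.25 CPM on the added control plate) and Zic2 (0.966 CPM) overlapped the plates of replicate 2, so that 4 genes were higher and 0 lower, the Otx2 ratio became 78.5, and those of Zic2 and Foxd3 became 0.967 and 1.31. As annotated, the counts were 5 and 1 again. The median log2 difference (of CPM + 0.5) over the 6 genes was 2.89 against replicates 1 and 3 and 2.87 against replicate 3, and that of all tested genes was 0.16 and -0.04. Fgf5 and Sox3 did not pass the filter on low counts that the tested genes had to pass, and the 4 others did. In auxin-treated cells 5 of 6 were above on every plate (21.8% of tested genes, with 10.8% below) and 5 were over 4-fold (3.24%) and 3 over 10-fold higher (0.423%). Against replicate 3 alone, 5 auxin-treated levels were over 4-fold (2.93%) and 3 over 10-fold higher (0.445%), with 5 above on every plate and 1 below (31.2% and 32%). With the source values' placement, 4 were above and 0 below, since Zic2 and Foxd3 overlapped.

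Other genes of the formative and primed states went the same way in most cases. Of 24 listed genes, 19 had all control plates of replicate 2 above replicate 3 and 4 below, with a median log2 difference of 1.58, and against replicates 1 and 3 together 19 were above and 2 (Nodal and Lefty2, ligands of the Nodal pathway) below. Dnmt3b and Dnmt3a, the enzymes that set DNA methylation anew, stood at 608 and 636 CPM in replicate 2 control, at 31.1 and 11.4 CPM in replicate 1 and at 49.1 and 36.3 CPM in replicate 3. Pim2, a kinase gene, was at 1222, 12.6 and 24.9 CPM in replicates 2, 1 and 3, and Tdgf1, the Nodal coreceptor, hardly differed. The Zic2 relative Zic5 (65.8 CPM in replicate 2, 17.7 in replicate 1 and 10.7 in replicate 3) was above on all plates although Zic2 was not.

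Naive genes went the other way. None of 16 was above replicate 3 on all control plates and 15 were below, with a median log2 difference of -2.29, and against replicates 1 and 3 together 13 were below. Nanog, a core naive factor, was at 58.6 CPM in replicate 2 against 496 and 525 CPM in replicates 1 and 3, and Klf2, a Krüppel-like naive factor, was at 189 CPM against 495 and 491 CPM. Klf4 was at 2.75 CPM against 141 and 72.7 CPM.

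The lists of genes that read out the inhibited pathways are given against the same background (28.3% of tested genes above replicate 3 and 36.2% below). Of 8 genes induced by ERK, 6 had all control plates of replicate 2 above replicate 3 and 2 below (median log2 difference 1.41). Egr1, an immediate early gene, was at 48.4 CPM in replicate 2 against 0.388 and 0.330 CPM in replicates 1 and 3, and Dusp6, a phosphatase that limits ERK, was at 52.4 CPM against 4.61 and 6.43 CPM. Etv5, an ETS factor and the highest of the list by mean level, was at 164 CPM against 103 and 227 CPM, below replicate 3 on all plates. Spry2, also a brake on the pathway, was lower, with 9.71 CPM against 23.4 and 17.6 CPM. Of 7 Wnt target genes 1 was above replicate 3 and 4 were below, counts near that background, among them Cdx1 with 0.693 CPM against 331 and 146 CPM, Sp5 with 0.347 CPM against 14.9 and 23.6 CPM and Axin2 with 0.918 CPM against 4.77 and 5.11 CPM. Lef1, which is on the formative list too, was the one above, with 307 CPM against 2.11 and 12.5 CPM. The study describes 1 medium for its ES cells without naming replicates. The part of culture or of any other difference between the replicates was not tested.

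**Figure D2:**
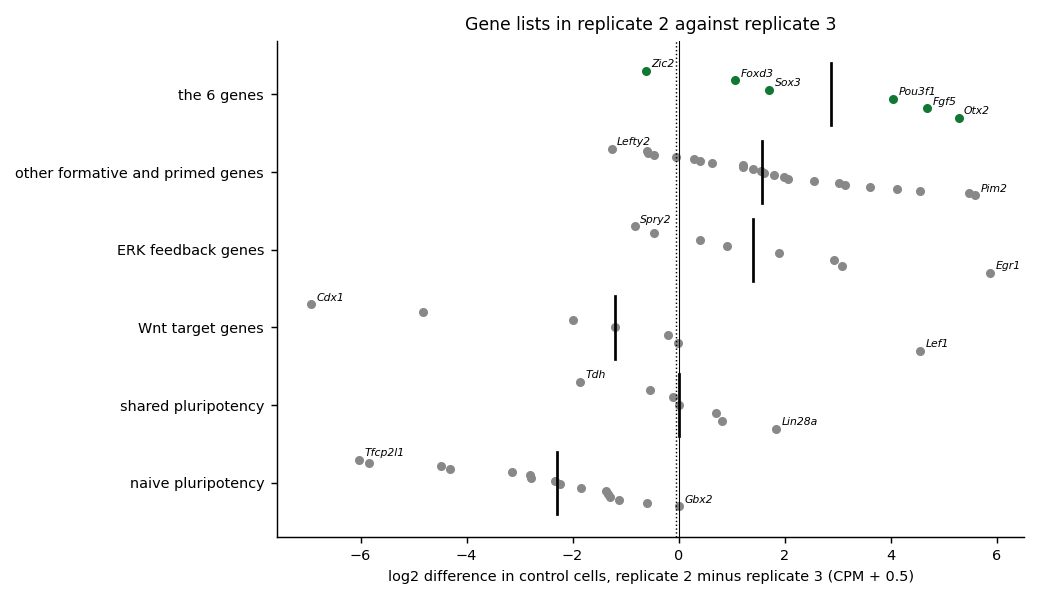
Log2 difference in control cells, replicate 2 minus replicate 3 (of CPM + 0.5, horizontal axis), for each gene of 6 lists. Points are genes, thick bars are list medians and the dotted line is the median of all tested genes (-0.04). The 6 genes (green) have a median of 2.87, other formative and primed genes 1.58 and naive genes -2.29.

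Markers of the cell types that ES cells could have turned into did not all go one way. The summed level of 9 neural progenitor markers was 61.9 CPM in replicate 2 control (plates 53.5 to 69.6), 82.3 in replicate 1 and 56.6 in replicate 3, but Sox1 is among the genes listed at 0 in replicates 2 and 3. Of the rest, Pax6 was at 18.0 CPM in replicate 2 against 0.388 and 2.31 CPM, and Nes at 24.8 CPM against 4.94 and 8.24 CPM, while Olig2, the highest of the list by mean level, went the other way with 16.0 CPM against 48.2 and 44.8 CPM. The sum over 8 mesendoderm markers was lower in replicate 2 (3.73 CPM against 32.8 and 21.3 CPM). That over 7 primitive endoderm markers was 14.3, 11.2 and 32.0 CPM in replicates 2, 1 and 3, and over 7 fibroblast markers it was 14.3, 2.66 and 12.5 CPM. Their part in the levels of the 6 genes was not tested.

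Shares of cells showed how the levels were spread. To set aside depth, each cell was thinned to 20000 UMIs, which left out 0 to 13 shallower cells per group. Otx2 was then found in 72.2% of replicate 2 control cells (exact 95% interval 67.3 to 76.7), in 11.3% of replicate 1 (6.95 to 17.1) and in 4.76% of replicate 3 (1.31 to 11.7). Pou3f1 was found in 52.9% (47.6 to 58.1), 1.19% (0.144 to 4.23) and 9.52% (4.20 to 17.9). Replicate 2 thus held many more positive cells, and the intervals did not overlap with those of the other replicates. Fgf5 was found in 15.2% of replicate 2 control cells (11.6 to 19.3) and in no thinned cell of replicates 1 and 3. Zic2 was found in 4.13%, 1.19% and 4.76% and Foxd3 in 3.58%, 1.19% and 0% of control cells of replicates 2, 1 and 3, with overlapping intervals.

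Without thinning, the shares in control cells of replicates 2, 1 and 3 were 84.1%, 22.0% and 7.06% for Otx2, 72.8%, 5.95% and 10.6% for Pou3f1, 25.3%, 0% and 1.18% for Fgf5, 6.20%, 1.19% and 1.18% for Sox3, 11.1%, 8.33% and 8.24% for Zic2, and 7.82%, 5.36% and 2.35% for Foxd3. The 0 of 168 cells for Fgf5 in replicate 1, counted as 3, allows a share of cells with a UMI of up to 1.79%, which is a limit on detection and not on expression.

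**Figure D3:**
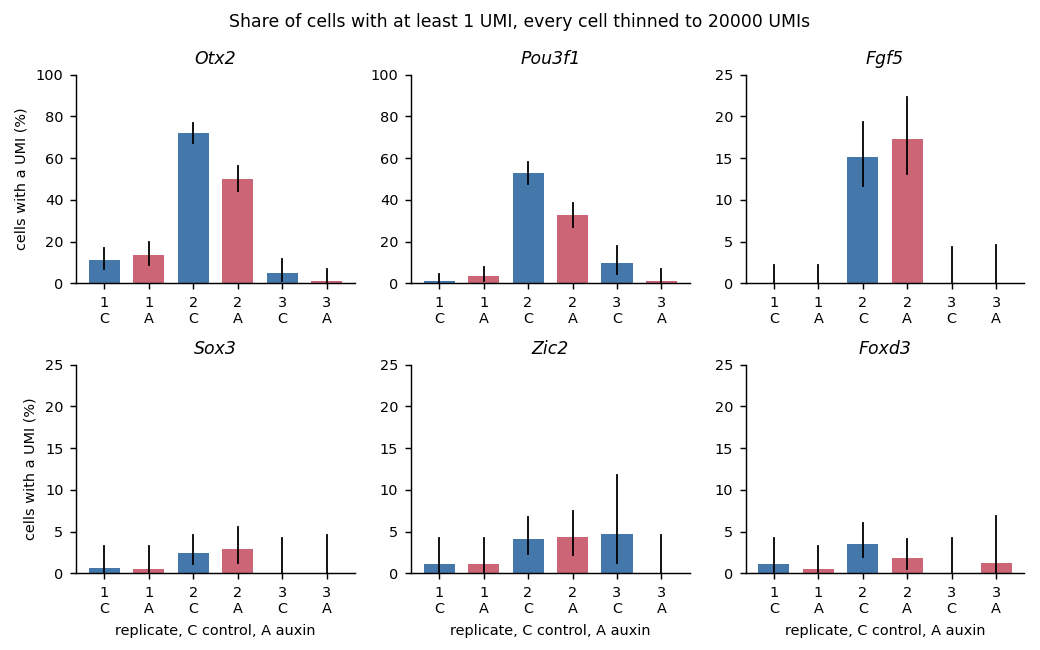
Share of cells with at least 1 UMI of each gene (percent, vertical axis, to 100 for Otx2 and Pou3f1 and to 25 for the others) after thinning every cell to 20000 UMIs, by replicate and condition (C control in blue, A auxin in red). Bars are shares and lines are exact 95% intervals of the counting error. In replicate 2, Otx2 reaches 72.2% without and 50.2% with auxin.

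Even in replicate 2 the genes were not evenly spread. If each control cell had drawn UMIs at the pooled rate, 99.7% of cells would have held an Otx2 UMI, 98.1% a Pou3f1 UMI and 80.5% an Fgf5 UMI, where 84.1%, 72.8% and 25.3% did. The 38 control cells of 371 with the highest level held 32.2% of all Otx2 UMIs, 39.3% of Pou3f1 UMIs and 75.1% of Fgf5 UMIs. Fgf5 was thus the most concentrated of the 3, and a positive cell held 8.68 Fgf5 UMIs on average. A positive cell held 29.2 UMIs of Otx2 and 15.7 of Pou3f1, and the highest cells reached 120 and 86 UMIs. In replicate 1 control the 37 cells with Otx2 held 6.68 UMIs on average, with up to 29 in 1 cell.

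Few cells of replicates 1 and 3 had more than 1 of the genes. After thinning, 12.7% of replicate 2 control cells held none of the 6, 37.5% held 1, 37.2% held 2 and 12.7% held 3 or more. In replicates 1 and 3, 84.5% and 82.1% of control cells held none, and no cell of either held 3. Otx2 and Pou3f1 were found together in 39.4% of replicate 2 control cells, where the product of their shares was 38.2%, and in 16.2% of auxin-treated cells, where it was 16.3%. Joint detection thus came close to what independent detection would give.

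Across the 371 control cells of replicate 2, which share culture and plates, Spearman correlations of CPM between the genes were low. Between Otx2 and Pou3f1 the correlation was 0.168 (0.124 in the 290 auxin-treated cells), between Otx2 and Fgf5 0.136 (0.265) and between Pou3f1 and Fgf5 0.214 (0.255). Pou3f1 and Dnmt3b, by comparison, gave 0.395 in control and 0.361 in treated cells. Sox3, Zic2 and Foxd3, each with at most 41 positive control cells, gave values with one another between -0.054 and -0.036. Cells with more UMIs held more Pou3f1 even on the CPM scale (Spearman 0.356 with the total in control), and the part of depth in these values was not tested.

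Nanog, the naive factor, was compared with the 6 genes across cells of each group. For Otx2 the Spearman correlation in control and treated cells was 0.021 and 0.041 (replicate 1), 0.133 and 0.202 (replicate 2), and -0.086 and -0.063 (replicate 3). The median over tested genes was between 0.019 and 0.048 in the 6 groups, and in replicate 2 the Otx2 value was above 83.4% (control) and 97.8% (auxin) of them. Nanog and Otx2 were thus opposite between replicates but weakly positive between cells of replicate 2. With every cell thinned to 20000 UMIs, replicate 2 gave 0.104 and 0.138 and replicate 1 gave 0.0806 and 0.180, so that the weak positive value was not particular to replicate 2. Replicate 3 gave -0.137 in control and 0.0573 in treated cells at that depth. Control cells of replicate 2 with an Otx2 UMI had a median of 36.5 CPM of Nanog, and those without had a median of 0 CPM. A split by Dnmt3b, whose own correlation with Nanog there was -0.0094, gave 33.5 and 0 CPM, and the part of depth in such splits was not tested.

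For Pou3f1 the correlation with Nanog in replicate 2 was -0.051 (control) and 0.063 (auxin), with 0.089 and 0.061 in replicate 1, and -0.10 and 0.15 in replicate 3. For Fgf5 it was -0.018 and 0.14 in replicate 2. These values had no steady sign. In replicate 2, Sox3 gave 0.0043 and 0.050, Zic2 0.0025 and -0.016 and Foxd3 -0.099 and -0.024. On raw counts the Otx2 value in replicate 2 control was 0.266 and that of Pou3f1 0.142, and the CPM of both genes correlated with the UMI total of the cell (0.119 and 0.356).

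**Figure D4:**
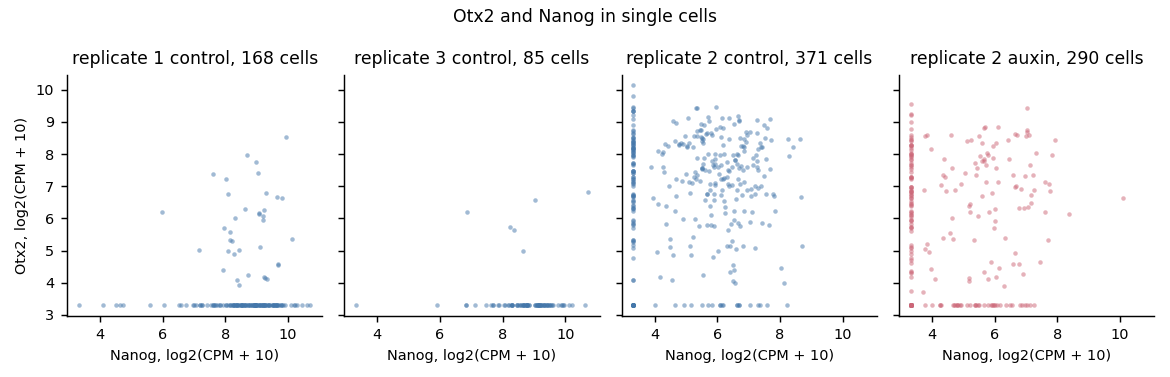
Otx2 against Nanog in single cells, both as log2(CPM + 10), in control cells of replicates 1, 3 and 2 and auxin-treated cells of replicate 2. Points are cells, and those on the lowest line of an axis have no UMI of that gene. Most cells of replicates 1 and 3 have Nanog and no Otx2, and in replicate 2 a median of 36.5 CPM of Nanog was seen in control cells with Otx2.

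The second comparison, auxin against control, asks whether 6 h without cohesin changed these genes. The 6 sums (3 replicates, 2 conditions) were tested with edgeR's quasi-likelihood test, which called 0 of 17514 genes at an adjusted p under 0.05 (0% of genes), as did DESeq2. Before adjustment 33 genes were under 0.05 in edgeR and 66 in DESeq2. With the replicate as a block, edgeR called 3 genes (0.0171%), the repressor of Wnt signaling Dkk1 and the naive factors Klf4 and Klf5, and DESeq2 called 57 (0.325%). None of the 4 members that passed the filter was among them.

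On the plates of settled condition, Otx2 was lower in auxin-treated cells of each replicate, at 10.9, 104 and 1.94 CPM against 13.7, 185 and 4.29 CPM in control cells of replicates 1, 2 and 3. In replicate 2 all 4 auxin plates lay below all 4 control plates, and in replicate 1 the plates overlapped. The log2 differences were -0.31, -0.83 and -0.97, which average -0.70 ± 0.34 (SD, n = 3, p = 0.25 by an exact permutation test that flips signs on both sides, and 3 replicates can give no smaller p). Of tested genes, 13.7% were lower and 15.6% higher in all 3 replicates. The fitted log2 fold change of Otx2 was -0.82 (SE 1.63, edgeR adjusted p = 1.00). With the replicate block it was -0.70 (SE 0.17, unadjusted p = 0.00291 and adjusted p = 0.638 in edgeR, 80th of 17514 genes). It passed the threshold with the block in one setting only, when genes of low counts were not filtered (edgeR adjusted p = 0.0296, a setting with 156 calls). DESeq2 with the block gave an adjusted p of 0.0687.

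The 2 plates of replicate 3 that were left out bear on this. The one annotated auxin had 0.483 CPM of Otx2 (3 UMIs) and the one annotated control 4.51 CPM (34 UMIs). Placed by the study's source values, they turned the direction of Otx2 in replicate 3, to 3.30 CPM with auxin (47 UMIs) against 2.36 CPM without (29 UMIs), and the mean over replicates became -0.24 (exact sign-flip permutation p = 0.75). Placed as annotated, they gave a mean of -0.88 (p = 0.25 in the same exact test). With the block, the fitted Otx2 value was -0.83 as annotated and -0.44 by the source values. Neither value passed in edgeR (adjusted p = 0.600 and adjusted p = 0.985).

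Pou3f1 was lower with auxin in replicate 2 (47.2 against 86.4 CPM, all 4 plates below control) and in replicate 3 (1.35 against 4.78 CPM, 9 against 29 UMIs), and higher in replicate 1 (1.51 against 0.943 CPM, 29 against 17 UMIs). The mean log2 difference was -0.63 ± 1.02 (SD, n = 3, exact sign-flip permutation test, p = 0.50). The fitted value was -0.90 (SE 1.81, edgeR adjusted p = 1.00), and with the block -0.71 (SE 0.34, adjusted p = 0.848). For Pou3f1 the disputed plates went the other way round from Otx2, with 6.76 CPM on that annotated auxin and 2.52 CPM on that annotated control. Placed as annotated, they turned its direction in replicate 3 (3.95 CPM with auxin, 3.53 CPM without) and brought its mean to -0.08 (exact sign-flip permutation p = 1.00) and the value with the block to -0.29. Placed by the source values, they gave a mean of -0.58. The mean was -1.19 without replicate 1 and -0.19 without replicate 3.

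Fgf5 was at 22.3 CPM with auxin and 16.6 CPM without in replicate 2, and its 4 auxin plates (22.1, 25.1, 23.8 and 18.5 CPM) overlapped the control plates. It thus did not follow Otx2 and Pou3f1 there, and the other replicates held too few UMIs for a comparison. Foxd3 was lower on all 4 auxin plates of replicate 2 (0.163 to 0.958 CPM against 1.22 to 2.77 CPM) and higher with auxin in replicate 3 (13 UMIs against 4). Zic2 was lower in replicate 1 (8 UMIs against 23) and replicate 3 (0 against 23) and higher in replicate 2 (164 against 112). With the disputed plates placed by the source values, Zic2 turned in replicate 3 to 2.60 CPM with auxin (37 UMIs) against 2.36 CPM without (29 UMIs). Sox3 had 82 control and 114 auxin UMIs in replicate 2, and 7 and 2 in replicate 1.

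The fitted values were -0.97 (SE 1.33) for Zic2 and -0.27 (SE 0.84) for Foxd3, both with an edgeR adjusted p of 1.00. The mean log2 differences over replicates were -1.21 ± 1.78 for Zic2, -0.15 ± 1.11 for Foxd3, -0.21 ± 0.48 for Sox3 and 0.13 ± 0.25 for Fgf5 (SD, n = 3, exact sign-flip permutation p = 0.50, 0.75, 0.50 and 1.00). None of these exceeded the spread between replicates. Leaving out replicate 2 turned the mean of Foxd3 to 0.32 and that of Fgf5 to -0.02. The mean of Zic2 was -2.03 without replicate 2, -0.26 without replicate 3 and -0.14 with the disputed plates placed by the source values.

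Counted over the 6 genes, 3 (Otx2, Pou3f1, Foxd3) had all auxin plates of replicate 2 below control and 0 above, where 5.78% and 7.47% of tested genes did. In replicate 1, 1 gene (Zic2) was below and 0 above, where 13.3% and 17.8% did. With the disputed plates left out or placed as annotated, 1 gene, Otx2, was lower with auxin in all 3 replicates and 0 were higher. With them placed by the source values, that 1 gene was Foxd3 (mean log2 difference -0.58, exact sign-flip permutation p = 0.25) and not Otx2.

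**Figure D5:**
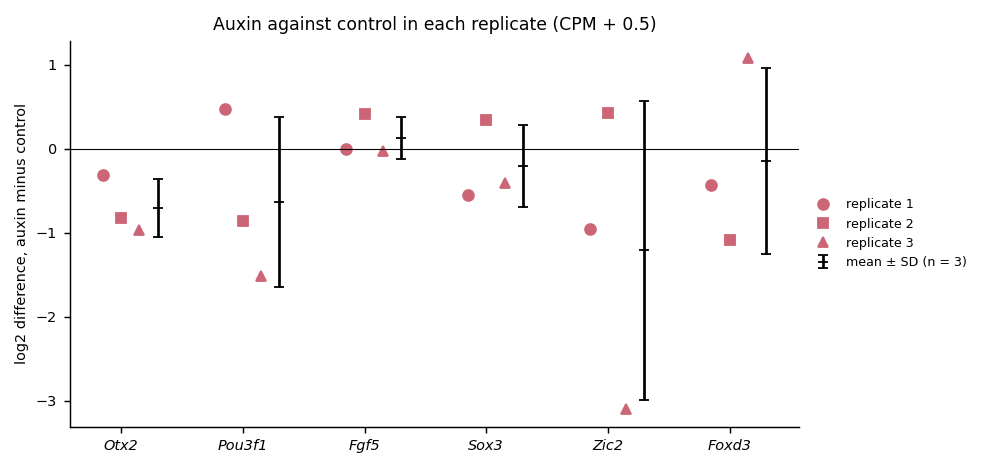
Log2 difference between auxin-treated and control cells (of CPM + 0.5, vertical axis) for each of the 6 genes. Red symbols are replicates and black bars are the mean ± SD over the 3 replicates. On the plates of settled condition, Otx2 lies below 0 in all 3 replicates (-0.31, -0.83 and -0.97), and the others lie on both sides of 0 or reach it. Zic2 has no UMI in auxin-treated cells of replicate 3.

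The share of Otx2-positive cells in replicate 2 after thinning was 72.2% without and 50.2% with auxin, and that of Pou3f1 52.9% and 32.5%. At the same thinned depth, positive cells held on average 251 CPM of Otx2 in control and 207 CPM in auxin-treated cells, and 148 and 118 CPM of Pou3f1. Both the share of positive cells and their mean level were thus lower with auxin in this replicate. Auxin-treated cells were deeper (median 187088 against 143842 UMIs), and the unthinned shares, 63.4% against 84.1% for Otx2 and 56.2% against 72.8% for Pou3f1, went the same way. In replicate 1 the thinned Otx2 share was 13.6% with auxin and 11.3% without, and in replicate 3 it was 1.27% and 4.76%. The direction in replicate 1 depended on depth, with differences of 2.30 points at 20000 UMIs, -0.807 at 40000 and -3.68 without thinning, and at the last 2 depths Otx2 was lower in all 3 replicates (mean -8.38 and -8.88 points, exact sign-flip permutation p = 0.25). Over replicates the difference was -7.73 ± 12.7 percentage points for Otx2 and -8.77 ± 11.4 for Pou3f1 (SD, n = 3, exact sign-flip permutation p = 0.50 for both). Leaving out 1 replicate gave -12.7 to -0.598 points for Otx2 and -14.3 to -2.95 points for Pou3f1, with the smallest difference without replicate 2 for both. For Fgf5, Sox3, Zic2 and Foxd3 the mean differences lay between -1.52 and 0.726 points, with p between 0.75 and 1.00 in the same exact test. The Zic2 value moved with depth, from -1.52 points to -3.23 at 40000 UMIs and -5.12 without thinning (exact sign-flip permutation p = 0.50 and 0.25). For Pou3f1 the direction in replicate 1 turned with depth, from 2.36 points at 20000 UMIs to -0.0446 at 40000 and 0.556 without thinning. Its mean was -7.80 points at 40000 UMIs, where it was lower in all 3 replicates, and -6.49 without thinning (exact sign-flip permutation p = 0.25 and 0.50).

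Among the other lists, 0 of 24 formative and primed genes were called with or without the block, and 7 were lower and 4 higher with auxin in all 3 replicates, where 13.7% and 15.6% of tested genes were. Of 16 naive genes, Klf4 (log2 fold change -1.26, SE 0.13, edgeR adjusted p = 0.0418 with the block) and Klf5 (-1.24, SE 0.11, adjusted p = 0.0211) were called with the block and not without it (adjusted p = 1.00 for both). Nanog was lower with auxin in replicate 2 (38.9 against 58.6 CPM), higher in replicate 1 (563 against 496 CPM) and close in replicate 3 (495 against 525 CPM). Of the 16 naive genes, 5 had all auxin plates of replicate 2 below control and 0 above, where 5.78% and 7.47% of tested genes did, but in replicate 1 they went both ways, with 6 below and 5 above (13.3% and 17.8% of tested genes). By their levels over all cells of settled plates, 6 of the 16 were lower and 0 higher with auxin in all 3 replicates. Of 7 genes shared by the pluripotent states, 4 were lower and 0 higher (13.7% and 15.6% of tested genes).

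The genes most like each member were sought over the 14 plates by Pearson's r of log2(CPM + 1), among 10641 genes with a mean of at least 5 CPM. With 8 of the 14 plates from replicate 2, the values mix differences between replicates with those between plates of 1 replicate. Otx2 was closest to Mycn (r = 0.984), Tuba1a (0.975) and Zic5 (0.970), Pou3f1 to Spata24, Pdk1 and Dlg4 (0.988, 0.985 and 0.985), and genes close to Fgf5 included Msmo1 and Slc7a7 (0.989 and 0.987). Over 0.9 were 1.36% of genes for Otx2, 4.84% for Pou3f1 and 5.06% for Fgf5. Sox3 was closest to Gabpb1 (0.893), Znhit6 (0.888) and Wdr86 (0.885) and Zic2 to Pdgfrl (0.916), Capn10 (0.916) and Pdcd11 (0.897). Within the 8 plates of replicate 2 alone, r for these pairs ran from 0.309 (Fgf5 with Slc7a7) to 0.927 (Otx2 with Mycn, a MYC family factor), with 0.686 for Otx2 with Tuba1a and 0.557 for Pou3f1 with Pdk1. Within the 6 plates of replicates 1 and 3, r ran from 0.0740 (Fgf5 with Msmo1) to 0.951 (Otx2 with Zic5). Zic2 with Capn10 gave 0.905 within replicate 2 and 0.931 within replicates 1 and 3. Foxd3, with 171 UMIs in all, was under the minimum of 200.

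Both antisense neighbours counted in the tables were also highest in replicate 2. Otx2os1, a noncoding gene on the opposite strand that overlaps 5112 bases of Otx2, was at 26.0 CPM in control and 23.2 CPM in treated cells of replicate 2, at 1.66 and 2.76 CPM in replicate 1 and at 10.9 and 2.84 CPM in replicate 3. Gm2164, antisense to Pou3f1 over 363 bases, was at 11.1 and 4.34 CPM in replicate 2, 0 in replicate 1 and 3.30 and 2.39 CPM in replicate 3. Whether the counting used strand is not given in the sources used here, so that reads of a gene and its antisense partner may not be told apart. Across replicate 2 control cells the correlation of Otx2 with Otx2os1 was 0.146, and that of Pou3f1 with Otx2os1 was -0.080.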

How the data were processed

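Smart-SCRB libraries of single ES cells, pooled by plate, were analysed for 3 replicates with 2 conditions each. The authors aligned to mm10. The UMI counts they deposited, by gene and well, are whole numbers and not normalized, and the counting program is not given in the sources used here. The deposited number of detected genes and total count of each well equalled those of the tables in all 1536 wells. The deposited saturation (a fraction) and percent of ERCC counts per well are not reported here. Replicate 1 plates annotated RAD21 positive and negative were read as control and auxin. The condition of every other plate came from the deposited annotation. Conditions are not labels of the samples but of plates within them, and nothing says whether the replicates were separate thaws, so p-values measure the spread between these 3 replicates.

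The counts of each condition of a replicate were summed and tested in R 4.3.3 with edgeR 4.0.16 (filterByExpr, TMM, quasi-likelihood test, Benjamini-Hochberg over 17514 genes, threshold 0.05). DESeq2 1.42.0 was an alternative. The replicate numbers pair the samples. Control and auxin sums of a replicate deviated together from their group means (correlations of 0.866, 0.824 and 0.666), and the fit with the replicate block was run too. Log2 differences used a pseudocount of 0.5 CPM, which understates changes of low genes. Shares have exact binomial intervals, correlations are across cells with no p, and thinning used seed 1. Python 3.11.15 with scipy 1.17.1 did the rest, and the gene test was tested on simulated data. GENCODE annotation of mm10 matched 99.7% of gene IDs.

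The 6 genes, the lists and the tests were chosen with earlier results of these data known. Named from the lists are up to 4 genes with the highest mean CPM per list and those past the threshold with or without the block, and for each of the 6 genes with at least 200 UMIs the 3 most similar genes and any overlapping gene. Dkk1, Nodal and Lefty2 were named after their values were seen. Some genes that this rule names are not reported here.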

Additional observations from a re-analysis of the deposited data

Results flagged for a closer look

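Values outside the comparisons, each of 1 gene in a set of wells or plates, were set against control cells of the same replicate. In 3 of these 20 cases the counting interval of the ratio to control lay wholly above 1. Other values were higher too, but with an interval that held 1. Wells of replicate 1 at or under the filter on detected genes gave Fgf5 at 10.8 CPM, which was 1 UMI, where the kept control cells held none. The same wells gave Sox3 at 75.6 CPM, 7 UMIs that all came from 1 of 47 wells, against 0.388 CPM in kept control cells. The plate of replicate 3 annotated auxin, which the study's source values place in control, gave Foxd3 at 2.25 CPM (14 UMIs) against 0.660 CPM (4 UMIs) on the settled control plate, a ratio of 3.42 with a counting interval of 1.07 to 14.3. The cause was not tested in any of the 3 cases. On the plate of replicate 3 annotated auxin, the interval lay wholly below 1 for Otx2 (ratio 0.113, 0.0218 to 0.368) and Zic2. It also lay below 1 for Pou3f1 on the plate annotated control and for Otx2 in wells of replicate 2 at or under the filter. In 12 groups of 4 plates (the 6 genes in control and auxin-treated cells of replicate 2), no plate stood apart from the others by Dixon's test, which by chance flags about 1 in 20 groups.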

How the results depend on the processing

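The auxin comparison called 0 genes in the fit without the block under every alternative run. With the replicate block, which the pairing of the samples calls for, edgeR called 3, DESeq2 57, and edgeR 156 with no filter on low counts, 3 with more than 4000 detected genes, 2 without cells above 250000 UMIs, 3 with the plates of replicate 3 as annotated and 0 with them as in the source values. Leaving out 1 replicate gave 0 genes without the block and 2 to 32 with it, 14 without replicate 1, 32 without replicate 2 and 2 without replicate 3. Of the 4 genes that passed the filter, Otx2 alone passed in any setting (block with no filter). Fgf5 and Sox3 were fitted only with no filter and without replicate 1 or 3, and did not pass there. The block changed no other call on them. The combinations of the block with another choice, the shares without a replicate, the comparison of replicate 2 with replicate 3 alone, and its counts and the direction of each gene under both placements of the disputed plates were chosen after seeing the data.

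The fitted Foxd3 value reversed without replicate 2 (0.47, and 0.30 with the block) and lay between -1.22 and 0.47 when any 1 replicate was left out. Mean log2 differences ran from -0.017 to 0.21 for Fgf5 and from -0.76 to 0.32 for Foxd3 when 1 replicate was left out. The mean difference in share for Sox3 (0.135 points) reversed with more than 4000 detected genes (-0.259), with either placement of the disputed plates (-0.622) and without replicate 2 (-0.0018, up to 0.204 without replicate 1). That for Zic2 (-1.52 points) was -5.12 without thinning, where Zic2 was lower in all 3 replicates, and -3.23 at 40000 UMIs. That for Foxd3 (-0.370 points) reversed at 40000 UMIs (0.165), with more than 4000 detected genes (0.877), with the plates as annotated (0.198) and without replicate 2 (0.334, down to -1.19 without replicate 3), and that for Zic2 without replicate 3 (0.0964, down to -2.38 without replicate 2). The Zic2 fit lay between -3.17 (without replicate 2) and -0.0017 (plates as in the source values). The correlation of Otx2 with Nanog in replicate 2 control was 0.266 on raw counts. The cause was not tested.

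The excess of replicate 2 over the others kept a median log2 difference of 2.50 to 3.30 over the 6 genes in 8 alternatives, and 4 genes had all plates above in each of the 4 alternatives that keep the plates. Depth limits Sox3, Zic2 and Foxd3, which had 206, 330 and 171 UMIs in all.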

Other observations

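The 107 wells of replicate 2 at or under the filter on detected genes held 30 UMIs of Otx2 and 27 of Pou3f1, which is 75.9 and 68.3 CPM of the UMIs in those wells, and no Fgf5, Zic2 or Foxd3. On the plates of replicate 3 left out for their condition, Zic2 was at 0.966 CPM (6 UMIs) on that annotated auxin and at 4.91 CPM (37 UMIs) on that annotated control, against 0 and 3.79 CPM on the plates of settled condition.

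Fgf4, the ligand that ES cells secrete to activate ERK, was at 87.1 CPM in control and 44.1 CPM in auxin-treated cells of replicate 2, at 136 and 237 CPM in replicate 1 and at 107 and 85.7 CPM in replicate 3. Zic5 was at 65.8 and 38.7 CPM in replicate 2, 17.7 and 15.7 CPM in replicate 1 and 10.7 and 10.5 CPM in replicate 3. Eomes, a T-box factor of mesendoderm, was lower with auxin in all 3 replicates, at 19.0 and 8.22 CPM in replicate 1, 1.73 and 0.0595 CPM in replicate 2 and 3.96 and 2.09 CPM in replicate 3. The level in auxin-treated cells of replicate 2 was 3 UMIs. Of the 8 mesendoderm markers, Eomes was the 1 lower in all 3 replicates and 0 were higher (13.7% and 15.6% of tested genes). Mixl1 and Gsc were higher with auxin in replicate 1 (log2 differences 1.00 and 0.62).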
